A study of Rattus norvegicus with 18 samples.

Results

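Among the genes that the authors listed as changed in the left ventricle of hypertensive and obese rats, 20 were keratins, claudins or other genes of epithelial and mesothelial cells. They were chosen by symbol: every row whose symbol begins with Krt or Cldn and a number, plus 15 epithelial or mesothelial genes named singly, with Cldn5, the claudin of endothelium, left out. These 20 genes (11 keratins, 3 claudins and 6 others) stood among 6588 gene identifiers in the 3 deposited tables. The rule names symbols only, but a gene could enter only if the authors listed it, which rests on its fold and adjusted p. The rule was also set with earlier results of these data known. The study sequenced polyadenylated RNA of the left ventricle from 18 male rats, 6 in each of 3 groups. WKY rats served as controls. The ZSF1 lean group was hypertensive, and the ZSF1 obese group, which combined hypertension with metabolic syndrome, modelled heart failure in which the ejection fraction is preserved (HFpEF). No drug treatment, age or further allele is named in the labels used here, and WKY differ from both ZSF1 groups in strain as well as in disease. Each table compares 6 rats with 6 and holds only genes whose fold reached 2 upward or 0.5 downward with an adjusted p below 0.05. In ZSF1 lean against WKY the largest adjusted p was 0.000347, while it was 0.0498 and 0.0499 in the obese tables, so the lean table is narrower. Levels per rat, the spread within a group and sequencing depth are unknown. A gene absent from a table may have changed less, varied more or not been detected.

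Keratins are the intermediate filament proteins of epithelial cells and assemble as pairs of 1 acidic type I and 1 basic type II chain. Claudins span the membrane at tight junctions and set which ions and solutes pass between cells, with scaffolds such as the zonula occludens proteins anchoring them to actin. The ventricle has no true epithelium. Its outer surface, the epicardium, is a mesothelium that carries keratins and the transcription factor Wt1, and claudins are also found in cardiac endothelium.

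The listed members were nearly all higher in obese hearts. In ZSF1 obese against ZSF1 lean, 16 members were listed and all 16 were higher, while 53.4% of all rows of that table were higher. In ZSF1 obese against WKY, 19 were listed, 17 higher and 2 lower, beside 54.0% higher among all rows. Among rows listed higher, the median fold was 4.03 for the 16 members and 3.01 for all such rows in the first comparison, and 3.78 for the 17 members and 3.05 for all such rows in the second. Over both directions the median log2 fold was 2.01 for the members and 1.07 for all rows against lean, and 1.88 and 1.08 against WKY. A gene with few reads in WKY and lean hearts could pass the limits almost only by being higher in obese hearts. Levels are unknown and the rule was set with earlier results known. All rows are therefore no like baseline, and neither direction nor fold can be read as a trait of the members. In ZSF1 lean against WKY, where the authors' deposited table has 233 rows and 63.9% of them higher, 0 members were listed. That count comes from the authors' DESeq2 result and is not comparable with those of the obese tables, since no row of the lean table has an adjusted p above 0.000347. With that as the limit, 10 members would remain against lean and 15 against WKY. Unadjusted p-values are not among the data used here, and no other tool could be run.

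The share of genes that was listed is given for each family, with no test between families. RefSeq (assembly GRCr8) annotates 99 protein-coding genes that meet the rule. Of these, 16 (16.2%) were listed against lean hearts and 19 (19.2%) against WKY hearts, beside 22.8% and 22.9% of all protein-coding symbols, and 79 were listed in no table. Against WKY, ZSF1 lean hearts had 0 members and 0.881% of all protein-coding symbols listed. Of 55 annotated keratins 9 (16.4%) were listed against lean and 10 (18.2%) against WKY, and of 29 annotated claudins 3 (10.3%) were listed in each. Of the 15 genes named singly, 4 (26.7%) were listed against lean and 6 (40%) against WKY. The keratin and claudin shares were thus below those of all protein-coding symbols, on small counts and with no test of the difference. The share of the singly named genes was above them, with no test of the difference. The genes of the rule were chosen with earlier results of these data known, so that higher share may come from the choice and supports nothing. How many of these genes were tested by the authors is unknown. Both obese comparisons use the same obese rats, so agreement between them is not a repeat of the measurement.

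**Figure D1:**
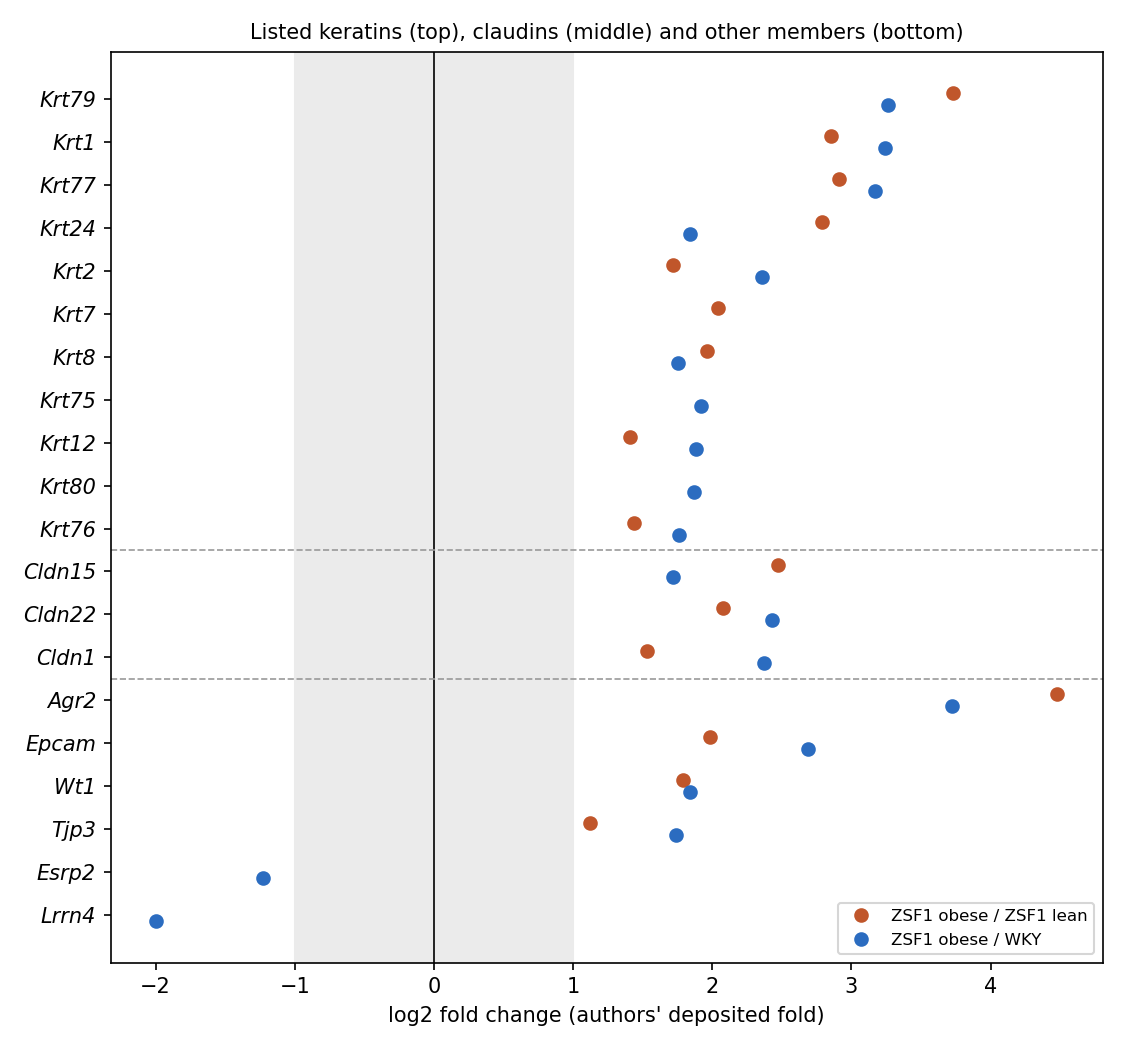
Log2 of the authors' deposited fold (horizontal axis) for each of the 20 listed members (rows), in ZSF1 obese against ZSF1 lean (orange) and against WKY (blue). The grey band spans folds under the tables' limit and a missing point means not listed. Apart from Esrp2 and Lrrn4, at log2 folds of -1.23 and -2.00 against WKY, all points lie to the right of the band.

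Among the type II keratins, Krt79, a keratin of the hair follicle canal (ENSRNOG00000058340), had the largest fold. The authors' deposited table gave it a fold of 13.3 against lean (adjusted p = 8.62e-29), the 35th largest fold of 5700 rows. Against WKY the authors' deposited table gave Krt79 a fold of 9.58 (adjusted p = 7.72e-12). Krt1, the type II keratin of differentiated epidermis (ENSRNOG00000028996), had a fold of 7.21 against lean with an adjusted p of 2.53e-31 by the authors' deposited table, the smallest among the members in that comparison. Its fold against WKY in the authors' deposited table was 9.45 (adjusted p = 1.10e-23). For Krt77, a keratin of sweat glands (ENSRNOG00000036865), the authors' deposited tables gave 7.52 against lean (adjusted p = 5.66e-08) and 9 against WKY (adjusted p = 3.46e-07). These 3 keratins had the largest folds of the family against WKY, and in the comparison with lean hearts Krt24 came close behind them.

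Keratins of lower fold followed. Krt2, of the upper epidermis (ENSRNOG00000009563), had folds of 3.29 against lean (adjusted p = 4.23e-07) and 5.13 against WKY (adjusted p = 1.19e-08) in the authors' deposited tables. Krt76, a keratin of oral epithelium (ENSRNOG00000031785), stood at 2.71 against lean (adjusted p = 0.00402) and 3.39 against WKY (adjusted p = 0.000142) in the authors' deposited tables. Krt8 (ENSRNOG00000009779), which pairs with keratin 18 in simple epithelia and in mesothelium, had 3.89 against lean (adjusted p = 1.65e-06) and 3.36 against WKY (adjusted p = 0.00682) in the authors' deposited tables. The usual partners of the listed type II chains were absent: Krt10, the partner of Krt1, Krt18, the partner of Krt8, and Krt19 were in none of the 3 tables. The basal epidermal pair Krt5 and Krt14 was not listed either.

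Other keratins were listed in 1 obese comparison alone. Krt7, a keratin of glandular epithelia (ENSRNOG00000008057), was listed only against lean, with a fold of 4.11 (adjusted p = 0.0131) in the authors' deposited table. Krt75, of the hair follicle companion layer (ENSRNOG00000043203), with a fold of 3.78 (adjusted p = 0.0186), and Krt80 (ENSRNOG00000025994), with a fold of 3.65 (adjusted p = 3.08e-06), were listed only against WKY in the authors' deposited table. Whether these 3 folds differ between the comparisons was not tested, since the tables hold no value for a gene that did not pass. Of type I keratins, Krt24 (ENSRNOG00000010970) had a fold of 6.92 against lean (adjusted p = 1.82e-07) and 3.58 against WKY (adjusted p = 3.62e-05) in the authors' deposited tables. Krt12, best known from corneal epithelium (ENSRNOG00000011986), had 2.66 against lean (adjusted p = 0.0035) and 3.68 against WKY (adjusted p = 7.85e-06) in the authors' deposited tables.

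Most listed keratins lay in 1 gene cluster. In RefSeq's gene order (GRCr8, which is not the build of the authors' counts), chromosome 7 carries 27 protein-coding keratins, the type II genes with Krt18 at one end, and 9 of them (33.3%) were listed in at least 1 obese comparison. Chromosome 10 carries 27, the type I genes, and 2 of them (7.41%) were listed, beside 26.1% of all protein-coding symbols. The difference between the clusters was not tested, since neighbouring genes of 1 family are not independent. Along chromosome 7 the run Krt2, Krt1, Krt77, Krt76, Krt4, Krt79 holds 6 consecutive keratins. Of these, 5 were listed in both obese comparisons, Krt4 being the exception. The run was picked after the results had been seen, and it begins and ends at listed genes. Krt73 and Krt78, the keratins just outside it, were not listed. Type II keratins are a family of similar sequence, and the handling of reads that fit several genes is not given in the sources used here. Division of reads among these neighbours is therefore uncertain.

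**Figure D2:**
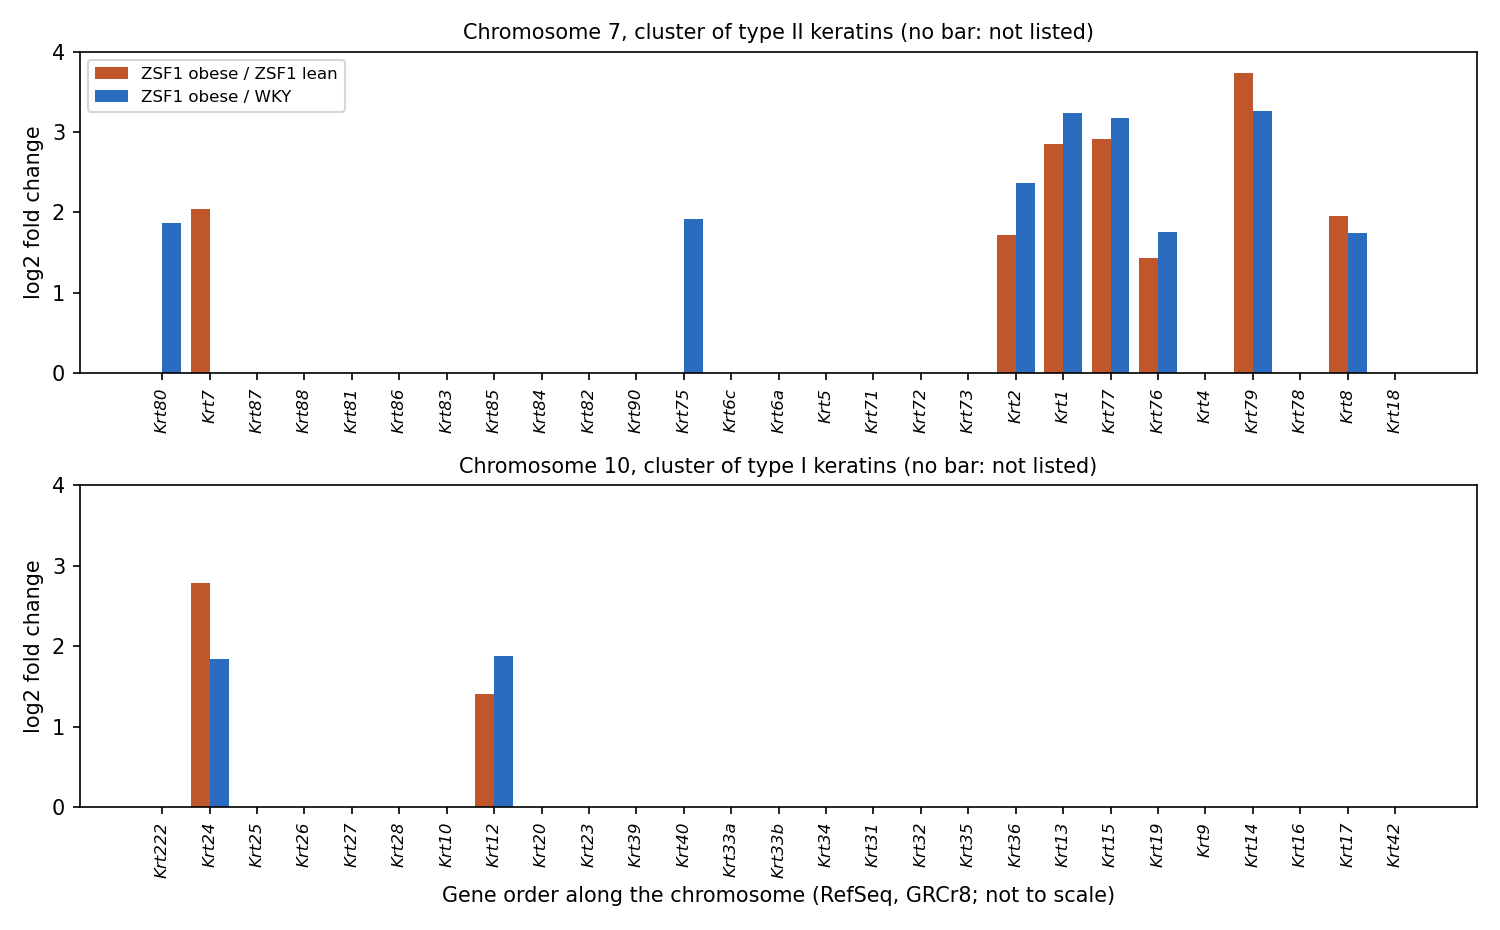
Log2 of the authors' deposited fold (vertical axis) for the keratins in their order along chromosome 7 (upper panel) and chromosome 10 (lower panel), orange against ZSF1 lean and blue against WKY. Genes without a bar were not listed. On chromosome 7, 5 of the 6 neighbours from Krt2 to Krt79 have bars, a run picked after the results had been seen. Other bars there stand at Krt80, Krt7, Krt75 and Krt8. On chromosome 10 bars stand at Krt24 and Krt12 alone.

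Promoter sequence is shown for some members that moved together. Krt2, Krt77 and Krt76 of the chromosome 7 run, and Krt12 on chromosome 10, share letters near the start. Those letters were not found in the listed claudins or Tjp3. RefSeq promoters (GRCr8, 250 bases before to 50 after the start) were matched by symbol, and 15 of the 20 members had 1 entry. Krt1, Krt79, Krt7, Krt80 and Esrp2 did not and were left out, so the run was examined only in part. The letters TATA, on the gene's own strand and beginning 35 to 25 bases before the start, were found in 4 of 7 listed keratins, in 0 of the 8 other members and in 3.25% of all 33469 promoters. Among all 39 keratin promoters with 1 entry, listed or not, 14 (35.9%) held it, so the feature belongs to the family at large. The letters GGGCGG on either strand were found in 1 of the 7 keratins, 4 of the 8 others and 33.1% of all promoters. These motifs were chosen after the sequences had been read, and a match is a description of letters. The printed stretches run from 80 bases before to 20 after the start, with TATA runs in capitals for the first 4 and GGGCGG in capitals for Cldn1 and Tjp3. Agr2, the member with the largest fold, holds neither.
Krt77, chr7:134880757-134880856, minus strand: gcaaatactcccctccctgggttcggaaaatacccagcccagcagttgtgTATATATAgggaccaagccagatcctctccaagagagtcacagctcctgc
Krt2, chr7:134826717-134826816, minus strand: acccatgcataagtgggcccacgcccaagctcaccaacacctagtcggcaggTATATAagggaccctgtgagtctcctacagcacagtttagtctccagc
Krt76, chr7:134904143-134904242, minus strand: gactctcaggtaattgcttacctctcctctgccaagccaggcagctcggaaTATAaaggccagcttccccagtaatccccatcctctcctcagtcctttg
Krt12, chr10:84874246-84874345, minus strand: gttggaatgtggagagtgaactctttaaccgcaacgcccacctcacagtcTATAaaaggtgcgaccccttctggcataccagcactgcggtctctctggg
Agr2, chr6:58435828-58435927, plus strand: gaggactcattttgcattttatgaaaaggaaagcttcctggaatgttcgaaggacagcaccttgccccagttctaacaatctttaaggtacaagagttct
Cldn1, chr11:87926296-87926395, plus strand: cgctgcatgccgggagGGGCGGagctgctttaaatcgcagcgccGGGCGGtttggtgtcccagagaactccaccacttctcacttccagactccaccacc
Tjp3, chr7:9084344-9084443, plus strand: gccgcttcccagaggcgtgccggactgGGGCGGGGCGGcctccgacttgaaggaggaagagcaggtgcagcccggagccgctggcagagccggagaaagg

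All 3 listed claudins were higher in both obese comparisons. Cldn15, a claudin that forms cation channels in the gut (ENSRNOG00000001419), had a fold of 5.54 against lean (adjusted p = 1.43e-29) and 3.29 against WKY (adjusted p = 3.55e-11) in the authors' deposited tables. For Cldn22, a claudin of little studied function (ENSRNOG00000030889), the authors' deposited tables gave 4.23 against lean (adjusted p = 9.77e-25) and 5.39 against WKY (adjusted p = 1.85e-25). Cldn1, the sealing claudin of epidermis (ENSRNOG00000001926), stood at 2.89 against lean (adjusted p = 0.00419) and 5.17 against WKY (adjusted p = 2.99e-06) in the authors' deposited tables. Cldn5, which the rule leaves out, was in none of the 3 tables. The epithelial claudins Cldn3, Cldn4 and Cldn7 were not listed.

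Tjp3, which encodes the tight junction scaffold ZO-3 (ENSRNOG00000020501), had the smallest fold of the members against lean, 2.17 (adjusted p = 0.00772), and 3.34 against WKY (adjusted p = 2.85e-06) in the authors' deposited tables. In RefSeq it overlaps Apba3, which was not listed. Ocln, the gene of the junction protein occludin, was not listed. Of 24 other tight junction genes, 5 were higher and 2 lower against lean, and 5 higher and 3 lower against WKY. Over all protein-coding symbols, 22.8% were listed in either direction against lean and 22.9% against WKY. No test was made against these shares. F11r, the junctional adhesion molecule A gene, had folds of 3.78 against lean (adjusted p = 5.24e-59) and 4.69 against WKY (adjusted p = 5.08e-68) in the authors' deposited tables. Marveld2, the gene of tricellulin, which seals the corners between 3 cells, had 2.97 against lean (adjusted p = 7.57e-07) and 5.28 against WKY (adjusted p = 4.45e-10) in the authors' deposited tables. Of the polarity genes in that list, Pard6a was higher and Pard6b and Patj were lower, with Patj at 0.203 of the lean level (adjusted p = 1.37e-50) and 0.182 of the WKY level (adjusted p = 1.02e-43) in the authors' deposited tables.

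The largest fold of all members belonged to Agr2, a protein disulfide isomerase of the endoplasmic reticulum of secretory epithelia (ENSRNOG00000005023). The authors' deposited table placed it at 22.3 against lean (adjusted p = 6.60e-10), the 5th largest fold of 5700 rows. Its fold against WKY in the authors' deposited table was 13.2 (adjusted p = 3.90e-07), the 52nd largest of 5709 rows. Epcam, a homophilic adhesion molecule of epithelia (ENSRNOG00000015667), had 3.94 against lean (adjusted p = 0.00473) and 6.45 against WKY (adjusted p = 1.54e-05) in the authors' deposited tables. The other defining epithelial genes of the rule, Cdh1 (E-cadherin), Esrp1, Elf3 and Muc1, were in none of the tables. Esrp2, a splicing regulator of epithelial cells (ENSRNOG00000023177), was listed only against WKY and was lower, the authors' deposited table giving 0.426 and an adjusted p of 0.0488, the largest among the members. RefSeq has it overlapping Nfatc3, which was not listed.

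For the mesothelial members the direction was mixed. Wt1, a zinc finger transcription factor of epicardium and mesothelium (ENSRNOG00000013074), had nearly the same fold in both comparisons, 3.46 against lean (adjusted p = 1.51e-30) and 3.58 against WKY (adjusted p = 2.51e-33) in the authors' deposited tables. Lrrn4, a membrane protein gene used as a mesothelial marker (ENSRNOG00000032989), was listed only against WKY and was lower. The authors' deposited table placed it at 0.25 of the WKY level (adjusted p = 0.0337). Msln, Upk3b, Muc16 and Upk1b, markers of mesothelium or urothelium, were in none of the tables. Outside the members, 10 of 20 other epicardial and mesothelial genes were higher and 0 lower against lean, with a median log2 fold of 1.52. Against WKY 11 were higher and 0 lower, with a median of 1.69. Of all protein-coding symbols, 22.8% and 22.9% were listed in either direction. All listed markers of fibroblasts, endothelium and macrophages were higher in both comparisons too, and their part in these counts was not tested. Podxl had the smallest adjusted p of the epicardial and mesothelial list in both obese comparisons, and Pdpn and Slc39a8 were also higher. Tcf21, Bnc1, Sema3d, Calb2, Dmkn, Itln1, Clu and Bcam were not listed. The epicardial transcription factor gene Tbx18 had 2.19 against lean (adjusted p = 0.000104) and 2.99 against WKY (adjusted p = 1.22e-06) in the authors' deposited tables. Aldh1a2, which encodes the epicardial enzyme that makes retinoic acid, had 2.17 against lean (adjusted p = 4.51e-05) and 2.91 against WKY (adjusted p = 3.11e-06) in the authors' deposited tables. Rspo1, the gene of a secreted enhancer of Wnt signalling, had 2.83 against lean (adjusted p = 3.08e-09) and 3.53 against WKY (adjusted p = 1.40e-12) in the authors' deposited tables. In ZSF1 lean against WKY, Aldh1a1 was the 1 listed gene of that list, and the authors' deposited table placed it at 0.5 of the WKY level (adjusted p = 1.61e-43).

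**Figure D3:**
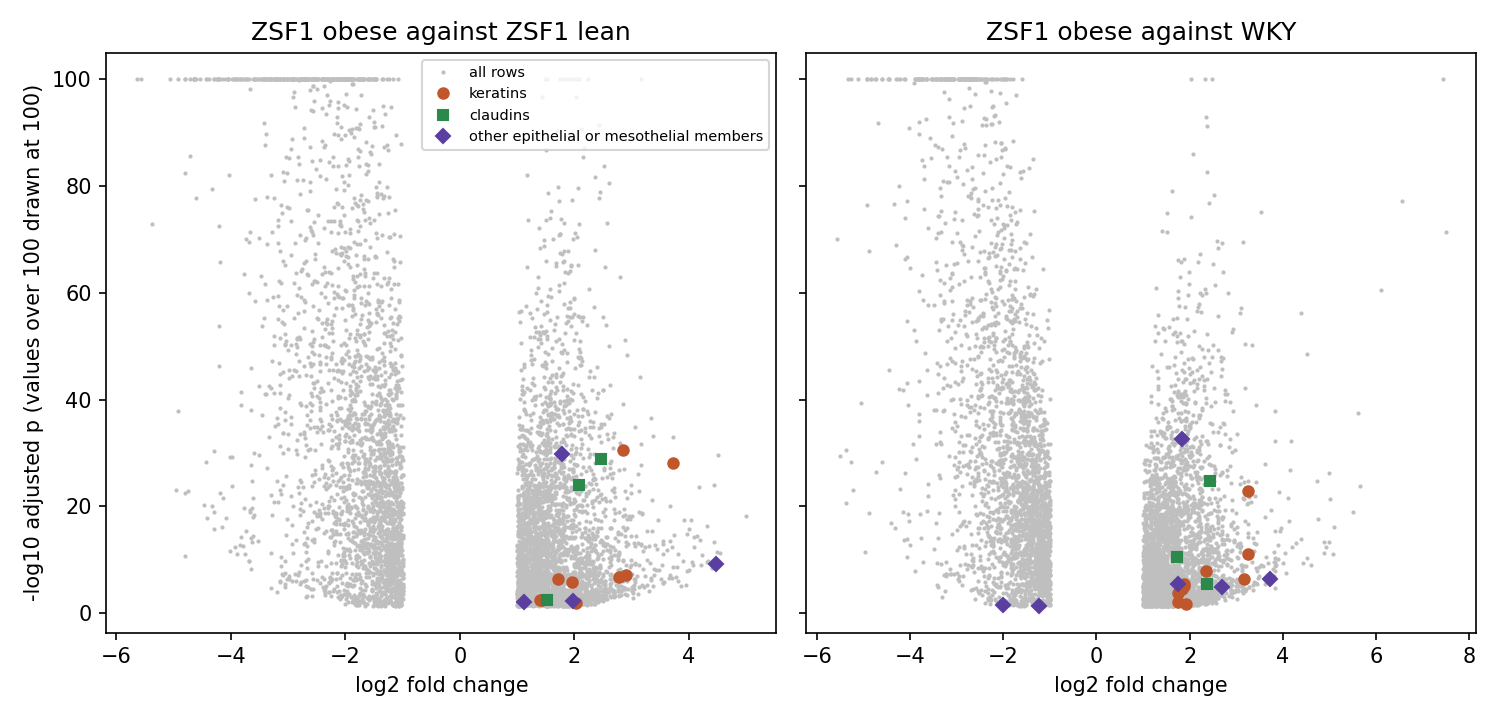
Log2 of the authors' deposited fold (horizontal axis) against -log10 of their adjusted p (vertical axis, values over 100 drawn at 100) for all rows (grey) and the members (coloured by family), ZSF1 obese against ZSF1 lean on the left and against WKY on the right. Most members lie low on the vertical axis, and Krt1, Krt79, Wt1, Cldn15 and Cldn22 stand highest in both panels.

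Among rows listed higher, a fold of at least 4 was reached by 8 of 16 members against lean and by 8 of 17 against WKY, beside 26.5% and 28.0% of all higher rows. Of the 16 members higher against lean, 11 had an adjusted p above 2.95e-12, the median of all higher rows, and 6 had one of 0.001 or more, as did 13.3% of all higher rows. Of the 17 higher against WKY, 12 had an adjusted p above the corresponding median of 2.26e-10, and 2 had one of 0.001 or more, as did 14.6% of all higher rows. Krt1, Krt79, Wt1, Cldn15 and Cldn22 had an adjusted p below the median of the higher rows in both comparisons. Mean levels are not among the values used here, so whether larger folds or larger adjusted p-values go with low counts was not tested. Of the 15 members in both tables, 10 had the larger fold against WKY and 5 (Krt79, Krt24, Krt8, Cldn15 and Agr2) against lean. The same count over all genes was not made, so it cannot be read as a trait of the members.

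Regulators linked to epithelial state were listed in both directions. Of 14 epithelial transcription factor genes, 1 was higher and 1 lower in each obese comparison. The share of all protein-coding symbols listed in either direction was 22.8% against lean and 22.9% against WKY. Tfcp2l1, a CP2-like transcription factor of kidney and gland ducts, stood at 0.062 of the lean level (adjusted p = 2.77e-12) and 0.06 of the WKY level (adjusted p = 3.38e-11) in the authors' deposited tables. Ehf was higher against lean (fold 3.51, adjusted p = 0.0498) and Klf5 against WKY (fold 2.23, adjusted p = 0.0153) in the authors' deposited tables. Of 10 genes of the transition from epithelium to mesenchyme, 6 were higher and 1 lower against lean, and 6 higher and 2 lower against WKY. Snai1, a repressor of E-cadherin, had 4.26 against lean (adjusted p = 1.68e-48) and 3.84 against WKY (adjusted p = 1.83e-28) in the authors' deposited tables. Cdh2, the N-cadherin gene of the intercalated disc, was lower, at 0.382 (adjusted p = 1.84e-17) and 0.374 (adjusted p = 2.94e-15) in the authors' deposited tables.

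Intermediate filament genes outside the keratins were listed in both directions. Of 20 such genes and their plakin linkers, 5 were higher and 2 lower against lean, and 7 higher and 2 lower against WKY. Among all protein-coding symbols, 22.8% and 22.9% were listed in either direction in these comparisons. Vim, the vimentin gene of mesenchymal cells, had 6.11 against lean (adjusted p = 2.72e-81) and 6.06 against WKY (adjusted p = 4.39e-69) in the authors' deposited tables. Des, the gene of desmin, the muscle filament, stood at 0.328 against lean (adjusted p = 3.12e-17) and 0.281 (adjusted p = 4.35e-20) in the authors' deposited tables. Dsp, the gene of desmoplakin, which ties filaments to desmosomes in both epithelium and myocardium, was at 0.213 (adjusted p = 5.05e-37) and 0.18 (adjusted p = 1.85e-41) in the authors' deposited tables.

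Markers of other cell types moved in the same comparisons, and their part in the members' values was not tested. Their counts stand beside 22.8% of all protein-coding symbols listed in either direction against lean and 22.9% against WKY. In bulk tissue, more cells of a type and more RNA per cell cannot be told apart. Of 12 cardiomyocyte markers, 6 were lower and 0 higher in each obese comparison, with median log2 folds of -1.80 and -1.92. Of 12 markers each, those higher against lean were 7 for fibroblasts, 10 for endothelium and 11 for macrophages, those higher against WKY were 9, 10 and 12, and none was lower. Of 10 neutrophil markers 6 were higher against lean and 2 against WKY, and in ZSF1 lean against WKY 4 were lower. Of 12 lung epithelium markers 2 were higher in each comparison, Ager and Napsa, while the surfactant genes Sftpa1, Sftpb, Sftpc and Sftpd and the club cell gene Scgb1a1 were not listed. Of 8 thymic epithelium markers 1, Dll4, was higher in each. Dll4 is also a gene of endothelium. Of 12 squamous and glandular markers 1 was higher and 1 lower in each. The higher one was Pkp1, a desmosomal plakophilin gene, with 6.5 against lean (adjusted p = 2.86e-07) and 29.4 against WKY (adjusted p = 4.73e-14) in the authors' deposited tables, and the lower one was Perp, at 0.376 (adjusted p = 4.21e-08) and 0.31 (adjusted p = 3.49e-10) in those tables.

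**Figure D4:**
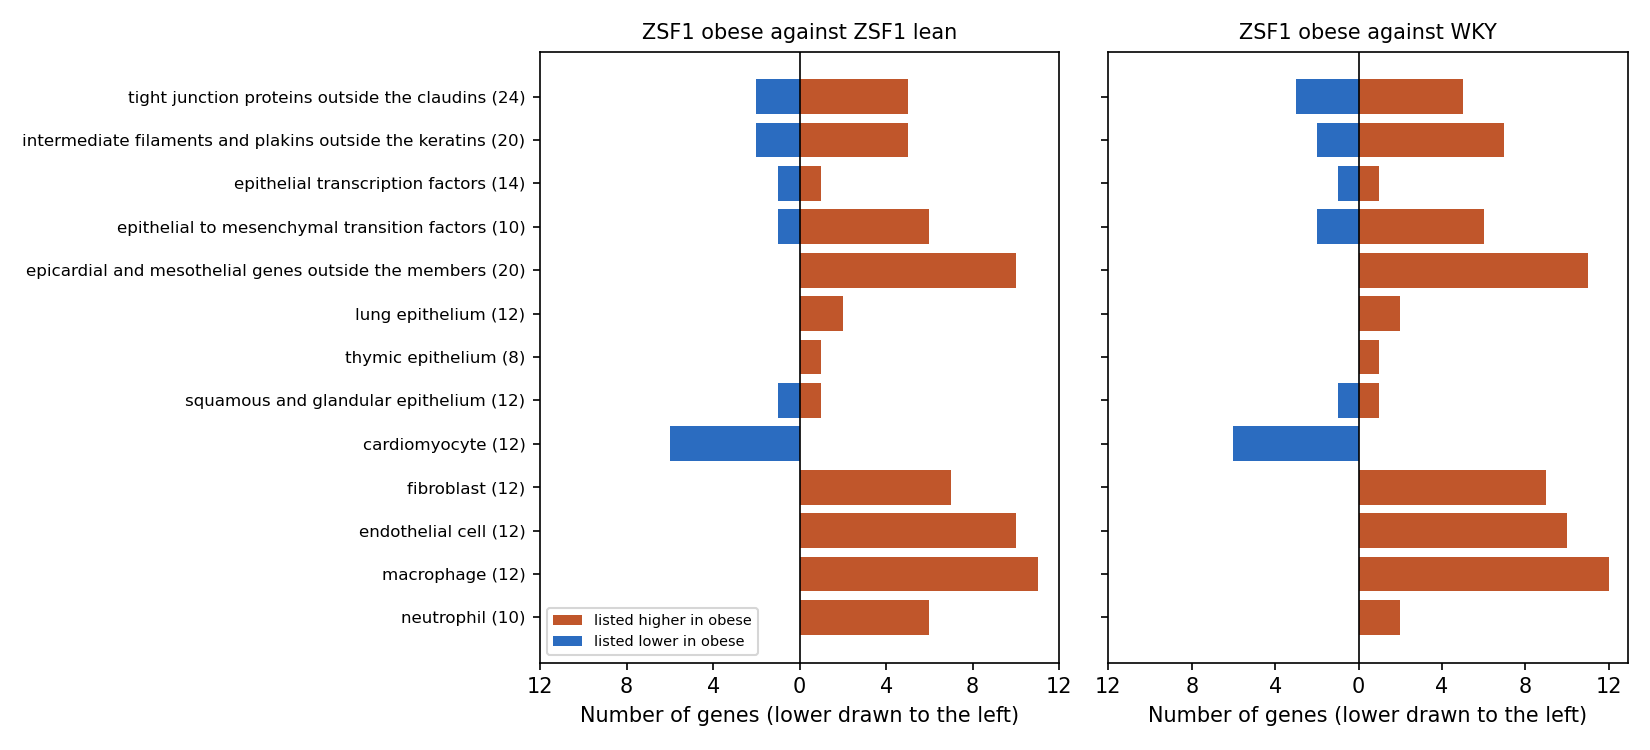
Number of genes of each fixed list (rows, list size in brackets) that were listed higher (orange, to the right) or lower (blue, to the left) in ZSF1 obese hearts, against ZSF1 lean in the left panel and against WKY in the right. The 10 and 11 epicardial and mesothelial genes point the same way as the fibroblast, endothelial and macrophage lists, and the 6 cardiomyocyte genes the other way.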

How the data were processed

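RNA extracted with an RNeasy kit was made into stranded poly(A) libraries and run on a HiSeq, per the labels' protocols. The submitters' processing notes name Rnor_6.0 as the build, with HISAT2 2.1.0, HTSeq 0.11.2 and DESeq2 1.22.2. No settings are stated there. The 3 tables give, per the file headers, a linear fold change (the deposited ratio, first named group over second) and an FDR (the deposited adjusted p-value). All rows passed a fold of 2 or 0.5 and an FDR of 0.05, as tested on the values, and the largest FDR in lean against WKY was 0.000347. Depth is unknown, and nothing could be refitted.

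Members were selected by symbol, counted by direction, and set beside all rows of the same table (Python 3.11.15, pandas 2.3.3). The counting was tested on simulated data with planted members. Log2 values were computed from the deposited folds. Members and lists were chosen with earlier results of these data known. List genes were matched by symbol or by an older symbol that no other gene carries. Any member may be named, and up to 4 genes of each other list by adjusted p. Krt10, Krt18, Krt19 and the other genes named as not listed, and Marveld2, Pard6a, Pard6b, Tbx18, Aldh1a2 and Aldh1a1, were chosen after the tables had been read. So were the genes in the closing section and the keratin run from Krt2 to Krt79. Where nothing says otherwise, the 6 rats of a group are taken as separate animals from their labels. No library batch is named in the labels, and a batch effect cannot be told apart from a group effect. The folds of the tables could not be combined into a lean against WKY value per member: over the 79 genes in all 3 tables, the log2 of the implied ratio differed from that of the deposited one by a median of 0.22 (SD 0.76), and 16 agreed within 0.1.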

Additional observations from a re-analysis of the deposited data

How the results depend on the processing

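Of 33 values recomputed under stricter or narrower settings, 21 stayed within 1.5 times the count (or within 0.1 of a median log2 fold), 12 moved and 0 reversed. This tally is no measure of robustness, since many of the values could not change. A count of 0 stays 0 under a stricter limit, and a count cannot reverse. With an adjusted p under 0.001, 10 members were higher against lean (median log2 fold 2.63), and against WKY 0 were lower, which leaves out Esrp2 and Lrrn4 (median 2.36). With the fold limits set to 4 upward and 0.25 downward, 8 were higher against lean (median 2.82), and 8 higher and 1 lower against WKY (median 2.69). Stricter limits keep larger folds by construction. With the genes named singly alone, 4 were higher and 0 lower against lean (median 1.88), and 4 higher and 2 lower against WKY. Counting once per symbol could change no value, since each member had at most 1 row in each comparison. Leaving out each rat and a minimum mean level were not run, since the tables hold no values per rat and no mean levels. No paired analysis was possible because the tables hold no values per rat and the groups share no replicate numbers.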

Other observations

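Some further genes with epithelial names, picked from the descriptions after the tables had been read, were also listed. Upk1a, Mslnl and Krtcap3 were higher in both obese comparisons, and Scnn1a was lower against WKY. Upk1a, a uroplakin gene of the urothelium, had folds of 2.48 against lean (adjusted p = 0.00229) and 8.75 against WKY (adjusted p = 1.11e-07) in the authors' deposited tables, while the related Upk1b and Upk3b were not listed. Mslnl, a mesothelin-like gene, had 5.5 against lean (adjusted p = 4.84e-07) and 2.91 against WKY (adjusted p = 0.00277) in the authors' deposited tables, while Msln itself was not listed. For Krtcap3, a keratinocyte-associated gene, the authors' deposited tables gave 5.43 (adjusted p = 0.00148) and 7.21 (adjusted p = 0.000626). Scnn1a, the alpha subunit gene of the epithelial sodium channel, was lower in both ZSF1 groups against WKY, at 0.473 in obese (adjusted p = 0.0125) and 0.48 in lean hearts (adjusted p = 8.72e-05) in the authors' deposited tables, and was not listed in obese against lean.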
